A study of Mus musculus with 20 samples.

Results

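Messenger RNA of 9 load-sensing genes was followed in the mouse soleus, a slow postural muscle of the calf: the muscle ankyrin repeat genes Ankrd1, Ankrd2 and Ankrd23, the LIM-domain genes Csrp3, Fhl1 and Fhl2, the Xin genes Xirp1 and Xirp2, and the filamin gene Flnc. The genes were chosen by name, with earlier results of these data known. All 9 were found among the 56941 gene entries of the count table by matching Ensembl identifiers to symbols. RNA was sequenced from the whole soleus of 1 hind limb of C57BL/6J mice, 10 control and 10 exposed, after removal of ribosomal RNA. The exposed mice went through 14 days of hind-limb unloading, in which the hind legs bear no weight, together with ionizing radiation and a stress hormone given through the diet. The control mice were sham-irradiated and otherwise housed alike. The 3 treatments were given together, so the part of each in any difference cannot be told apart. The sources used here give neither the age and sex of the mice nor the radiation dose or the hormone.

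Striated muscle carries sensors of stretch and load at the Z-disc, where actin filaments of neighbouring sarcomeres are anchored, and along the elastic I-band stretch of titin. The muscle ankyrin repeat proteins bind titin there and can move to the nucleus. The LIM proteins Csrp3, Fhl1 and Fhl2 sit at the Z-disc or on titin and also bind signalling enzymes and transcription factors. Xin proteins and filamin C bind actin and one another and gather at Z-discs, myotendinous junctions and sites of fibre damage. Genes of this group are known to respond to stretch, exercise and disuse of muscle.

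Library totals ran from 17336017 to 43424464 counts, and no 2 libraries held identical values. Muscle fibre markers were high everywhere, with a summed level of 41795 to 50281 CPM (counts relative to library size, scaled by the trimmed mean of M values, TMM) in controls and 43538 to 57290 CPM in exposed libraries. The exposed libraries stood apart from each other in nerve content: the summed CPM of 8 Schwann cell markers was 94.4 to 192 in controls, 512 to 1489 in exposed replicates 1 to 4 and 93.8 to 181 in exposed replicates 5 to 10. Fibre type markers moved with exposure: on the log2 scale, the slow myosin gene Myh7 changed by -1.13, the fast genes Myh2 by -4.96, Myh1 by 2.07 and Myh4 by 4.39. Xin proteins and filamin C are abundant at the myotendinous junction. The summed level of 7 markers of tendon and that junction was 265 to 589 CPM in controls and 147 to 239 in exposed libraries. All 7 fell by edgeR's test, as did 28.9% of all genes tested. Exposed replicates 1 to 4 also had lower summed fibre markers than exposed replicates 5 to 10, 43538 to 50802 against 51385 to 57290 CPM. The 4 adipocyte markers summed to 70.5 to 169 CPM in exposed replicates 1 to 4 and 9.72 to 68.1 CPM in exposed replicates 5 to 10. In controls that sum was 11.0 to 87.2 CPM. No marker was at 0 in any library. Exposed replicate 7 stood apart for 3 of the 9 genes described here. Fewer cells of a type and less RNA per cell cannot be told apart in whole muscle. The part of fibre type, nerve, adipocyte or tendon content in the results below was not tested.

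Of the 9 genes, 8 fell in exposed soleus and none rose, by edgeR's quasi-likelihood test with Benjamini-Hochberg adjustment at 0.05. Over all 16778 genes tested, 57.6% were called, 28.9% lower and 28.7% higher, so a call alone is common in these libraries. In 5 of the 9 genes (Ankrd2, Ankrd23, Csrp3, Fhl1 and Fhl2) every exposed library lay below every control library, against 11.0% of all genes tested. The median log2 fold change of the 9 genes was -1.25, with a range of -2.65 to -0.47, against 0.02 over all genes tested. Since the 9 genes were chosen with earlier results known, these comparisons with all genes are a description. Xirp1 did not pass the test.

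**Figure D1:**
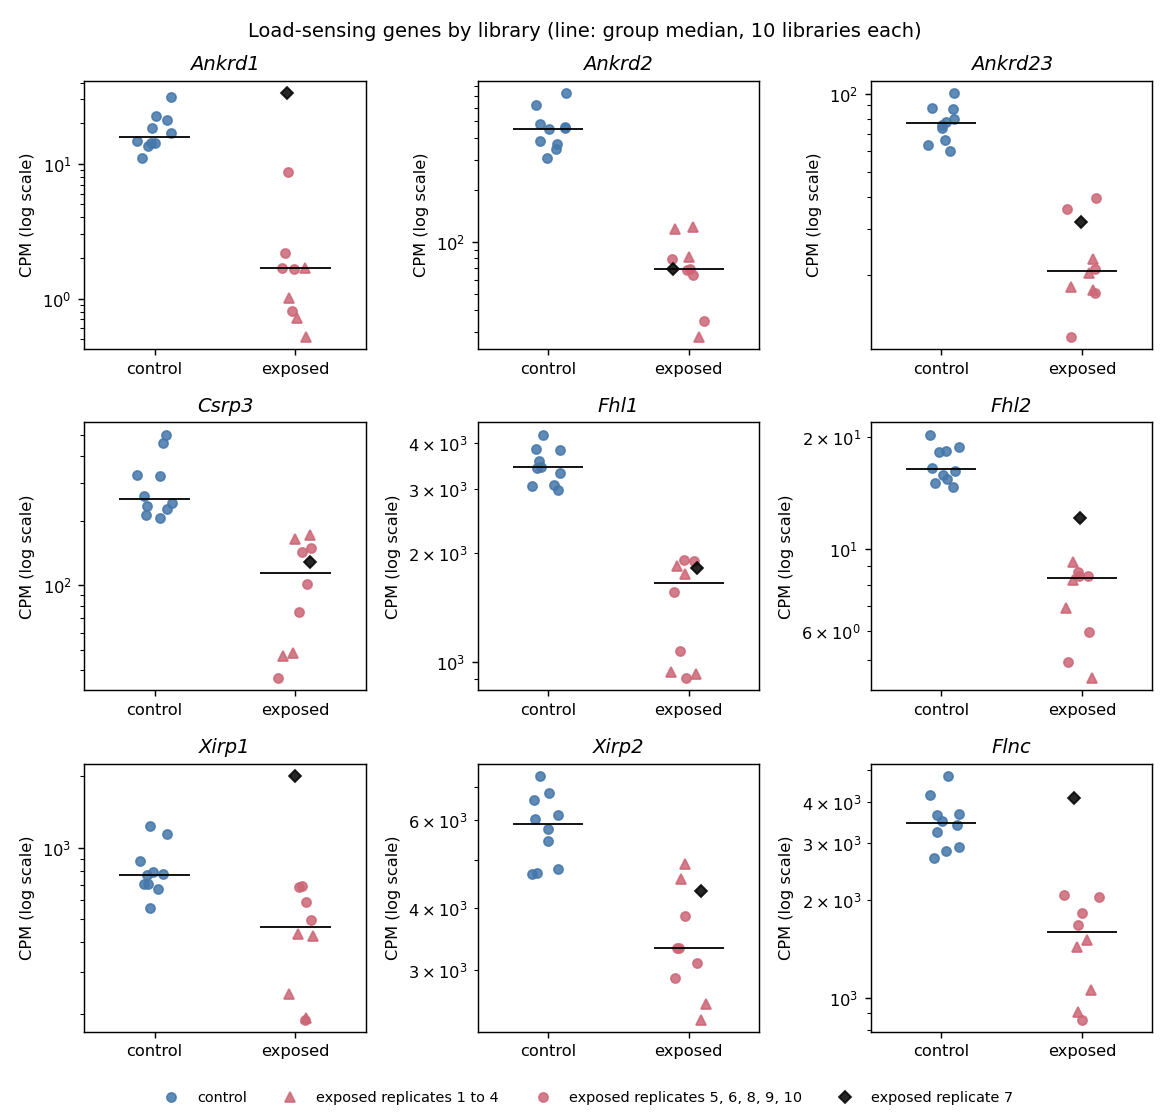
Level of each of the 9 genes in every library, in CPM on a log scale, with 10 control and 10 exposed libraries and the group median as a line. Exposed values lie wholly below control values for Ankrd2, Ankrd23, Csrp3, Fhl1 and Fhl2, while exposed replicate 7 (black diamond) lies at 33.4 CPM for Ankrd1, 2003 CPM for Xirp1 and 4112 CPM for Flnc.

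Among the ankyrin repeat genes, Ankrd2, whose protein is the form best known from slow fibres and from stretched muscle, had the largest fitted fold change of the 9 genes over all libraries. It ran from 308 to 729 CPM in controls with a median of 452, and from 28.0 to 121 CPM in exposed libraries with a median of 69.0. No exposed library came near the controls: the highest of them held less than the lowest control. Ankrd2 was 6.28-fold lower in exposed muscle (460.8 ± 128 CPM against 73.3 ± 30.0 CPM, mean ± SD, n = 10 each), a log2 fold change of -2.65 with an adjusted p of 2.03e-08 by edgeR's test. Exposed replicates 4 and 6 held the lowest levels, at 28.0 and 34.4 CPM.

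Ankrd23, the diabetes-related ankyrin repeat protein, ran from 60.2 to 100.3 CPM in controls with a median of 76.9, and from 11.5 to 39.7 CPM in exposed libraries with a median of 20.7. The groups did not overlap. The gene was 3.27-fold lower in exposed muscle (77.2 ± 12.3 CPM against 23.6 ± 9.13 CPM, SD, n = 10 each), with an adjusted p of 1.84e-07 by edgeR's test. Its exons share 2109 bases with another gene model on the same strand, Gm42417, listed at a mean of 0.182 CPM, so reads may be split between them and the level of Ankrd23 is uncertain.

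Ankrd1, or cardiac ankyrin repeat protein, is a known target of YAP and TEAD factors and is scarce in resting skeletal muscle. It ran from 11.0 to 31.1 CPM in controls with a median of 15.7, and from 0.521 to 33.4 CPM in exposed libraries with a median of 1.67. Exposed replicate 7 exceeded every control, exposed replicate 5 followed at 8.74 CPM, and 9 of 10 exposed libraries lay below the lowest control. The median was 9.41-fold lower in exposed muscle, whereas the fitted fold change, which follows the mean (17.8 ± 5.91 against 5.24 ± 10.2 CPM, SD, n = 10 each), was 3.29-fold lower with an adjusted p of 0.0280 by edgeR's test. Counts of Ankrd1 were as low as 17 in a library, so the lowest exposed levels are the least precise of all 9 genes. Without exposed replicate 7 the log2 fold change went from -1.72 to -3.10, with an adjusted p of 5.26e-06 by edgeR's test. Exposed replicates 1 to 4 stood apart in nerve, fibre and adipocyte markers. Without them the log2 fold change was -1.06 and the call was lost, with an adjusted p of 0.178 by the same test. Without exposed replicates 1 to 4 and 7, a comparison added after seeing the data, it was -2.54 with an adjusted p of 0.000398 by the same test.

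The 250 bases before the start site of each gene were searched on both strands for 4 motifs: the MCAT element bound by TEAD factors (CATTCC), the E-box bound by factors such as MyoD (CANNTG), the CArG box bound by SRF, and the MEF2 box. Windows came from RefSeq on GRCm38.p6 and covered 8 of the 9 genes, with 13 windows in all, since some genes have 2 annotated starts. Xirp1 was not matched. Of 32851 windows of the same length over all genes, 12.6% held an MCAT element, 1.02% held 2 or more, 1.47% held a CArG box, 2.92% held a MEF2 box and 66.2% held an E-box. A match is a description of letters and not evidence of binding. The window of Ankrd1 (chr19:36119845-36120094, minus strand) is shown because it was the only window of these genes with 2 MCAT matches. They start 210 and 123 bases before the gene and stand in capitals below, written 5′ to 3′ on the gene's strand, where the element reads as its reverse complement GGAATG.
Ankrd1: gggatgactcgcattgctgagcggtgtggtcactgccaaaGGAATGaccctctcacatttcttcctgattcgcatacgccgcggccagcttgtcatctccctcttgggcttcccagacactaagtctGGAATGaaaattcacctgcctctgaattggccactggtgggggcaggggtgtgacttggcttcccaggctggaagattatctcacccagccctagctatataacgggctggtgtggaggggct
Ankrd23 held 1 MCAT match, 120 bases before its second start, and the Ankrd2 window held no MCAT, CArG or MEF2 match.

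The LIM genes fell by 2.18-fold to 2.82-fold. Csrp3, or muscle LIM protein, a cofactor of MyoD and a Z-disc protein, ran from 206 to 503 CPM in controls with a median of 251, and from 36.8 to 170 CPM in exposed libraries with a median of 114. The groups did not overlap, but the exposed libraries spread widely, with replicates 6, 1 and 4 lowest at 36.8, 46.5 and 48.2 CPM. Csrp3 was 2.82-fold lower in exposed muscle (299 ± 105 against 106 ± 51.5 CPM, SD, n = 10 each), with an adjusted p of 0.000234 by edgeR's test.

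Fhl1, a LIM-only protein that binds titin and is mutated in several human myopathies, ran from 2972 to 4225 CPM in controls with a median of 3437, and from 904 to 1912 CPM in exposed libraries with a median of 1654. The groups did not overlap, and the same 3 exposed replicates were lowest, at 904, 928 and 943 CPM in replicates 6, 1 and 4. Fhl1 was 2.38-fold lower in exposed muscle (3479 ± 405 against 1462 ± 442 CPM, SD, n = 10 each), with an adjusted p of 3.19e-07 by edgeR's test.

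Fhl2, a LIM-only protein that binds titin and acts as a cofactor and target of SRF, was far scarcer. It ran from 14.7 to 20.3 CPM in controls with a median of 16.4, and from 4.47 to 12.1 CPM in exposed libraries with a median of 8.33. The groups did not overlap, and exposed replicate 7 was the highest exposed library. Fhl2 was 2.18-fold lower in exposed muscle (17.0 ± 1.88 against 7.74 ± 2.26 CPM, SD, n = 10 each), with an adjusted p of 3.53e-07 by edgeR's test.

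Both Fhl2 windows held a CArG box match, the element through which SRF acts, and Fhl1 held 1, at 102 bases before its first start. The window before the second Fhl2 start (chr1:43163962-43164211, minus strand) is shown with the CArG box in capitals, 31 bases before the start.
Fhl2: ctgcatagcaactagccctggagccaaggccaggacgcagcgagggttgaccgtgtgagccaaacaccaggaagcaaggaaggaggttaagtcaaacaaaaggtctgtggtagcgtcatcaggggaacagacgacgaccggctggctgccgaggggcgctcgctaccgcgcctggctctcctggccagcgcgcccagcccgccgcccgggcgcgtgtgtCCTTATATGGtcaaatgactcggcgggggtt
The other Fhl2 window held a CArG box 96 bases and a MEF2 box 31 bases before its start, and neither Csrp3 window held an MCAT, CArG or MEF2 match.

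With all libraries in, the Xin genes and Flnc had the smallest fold changes of the 9 genes. Xirp2, or myomaxin, a Xin protein of the Z-disc, ran from 4680 to 7351 CPM in controls with a median of 5897, and from 2391 to 4892 CPM in exposed libraries with a median of 3325. The groups overlapped by a single exposed library, replicate 2, and 9 of 10 exposed libraries lay below the lowest control. Xirp2 was 1.65-fold lower in exposed muscle (5831 ± 929 against 3528 ± 854 CPM, SD, n = 10 each), with an adjusted p of 2.83e-05 by edgeR's test. Its exons share 168 bases with Gm13601 on the opposite strand, listed at a mean of 0.0727 CPM, and whether reads were counted by strand is unknown here, so reads from the pair may be mixed.

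Flnc, the muscle filamin that crosslinks actin at the Z-disc and is renewed by chaperone-assisted autophagy, ran from 2693 to 4799 CPM in controls with a median of 3449, and from 860 to 4112 CPM in exposed libraries with a median of 1593. Exposed replicate 7 lay within the control range, and the other 9 exposed libraries lay below every control, the highest of them at 2068 CPM. Flnc was 1.99-fold lower in exposed muscle (3484 ± 647 against 1750 ± 938 CPM, SD, n = 10 each), with an adjusted p of 0.00105 by edgeR's test. The log2 fold change of -0.99 became -1.23 without exposed replicate 7 and -0.72 without exposed replicates 1 to 4, and the gene was called lower in each case.

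Xirp1, the founding Xin protein, which is known to rise in damaged and regenerating fibres, ran from 556 to 1239 CPM in controls with a median of 769, and from 189 to 2003 CPM in exposed libraries with a median of 464. Exposed replicate 7 exceeded every control, the next highest exposed library stood at 693 CPM, and 6 of 10 exposed libraries lay below the lowest control. The difference did not pass the test: the log2 fold change was -0.47 (823 ± 213 against 595 ± 529 CPM, SD, n = 10 each), with an adjusted p of 0.272 by edgeR's test. Without exposed replicate 7 it was -0.91 and called lower, with an adjusted p of 0.00506 by the same test. Without exposed replicates 1 to 4 it was -0.07, with an adjusted p of 0.882, and without exposed replicates 1 to 4 and 7 it was -0.63, with an adjusted p of 0.0728, both by edgeR's test.

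The Xirp2 window (chr2:67445752-67446001, plus strand) is shown for its MEF2 box in capitals, 74 bases before the start, since MEF2 factors are activators of muscle genes. The window before the second Flnc start (chr6:29433006-29433255, plus strand) is shown for its MCAT element in capitals, 104 bases before the start, the same element that stands in the Ankrd1 window.
Xirp2: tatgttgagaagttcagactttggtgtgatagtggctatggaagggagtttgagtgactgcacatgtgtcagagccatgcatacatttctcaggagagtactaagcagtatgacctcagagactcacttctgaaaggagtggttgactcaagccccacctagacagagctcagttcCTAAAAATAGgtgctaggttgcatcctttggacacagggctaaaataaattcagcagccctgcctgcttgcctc
Flnc: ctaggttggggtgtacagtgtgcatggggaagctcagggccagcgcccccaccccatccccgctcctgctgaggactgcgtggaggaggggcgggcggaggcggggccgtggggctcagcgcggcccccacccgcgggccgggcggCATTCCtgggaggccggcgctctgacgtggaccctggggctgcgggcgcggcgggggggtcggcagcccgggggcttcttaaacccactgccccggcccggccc
The window before the other Flnc start held none of the 4 motifs. Ankrd1, Ankrd23 and Flnc were the 3 genes with an MCAT match in a window.

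The fold changes of Ankrd1, Xirp1 and Flnc depended on which exposed libraries were kept. Without exposed replicate 7, all 9 genes were called lower by edgeR's test, and without exposed replicates 1 to 4, 7 were. Over all genes tested, 56.9% were called without exposed replicate 7, and 50.5% of these calls were lower. Without exposed replicates 1 to 4, 51.3% were called, and 50.9% of these calls were lower. The calls of Ankrd2, Ankrd23, Csrp3, Fhl1, Fhl2, Xirp2 and Flnc held under each of the 32 alternatives tried. DESeq2, which replaces extreme counts, replaced the count of Ankrd1 in exposed replicate 7 and no other count of the 9 genes, and gave a log2 fold change of -2.62 for Ankrd1.

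**Figure D2:**
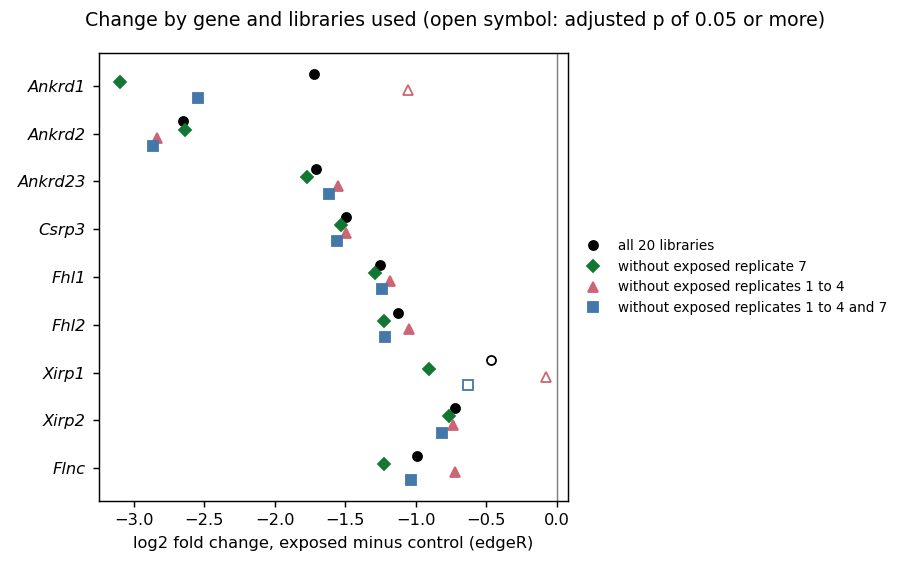
Log2 fold change of each gene (edgeR, exposed minus control) with all 20 libraries, without exposed replicate 7, without exposed replicates 1 to 4 and without both. Open symbols mark an adjusted p of 0.05 or more. Ankrd1 spreads from -3.10 to -1.06 and Xirp1 from -0.91 to -0.07, and Flnc from -1.23 to -0.72, and every value lies below 0.

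Exposed replicate 7 was highest of the exposed libraries for 4 of the 9 genes, Ankrd1, Fhl2, Xirp1 and Flnc. Relative to the median of the other 9 exposed libraries, it held 18.98 times as much Ankrd1, 4.62 times as much Xirp1 and 2.72 times as much Flnc. The ratio was 0.999 for Ankrd2, 1.16 for Fhl1, 1.27 for Csrp3, 1.31 for Xirp2, 1.47 for Fhl2 and 1.57 for Ankrd23, so the difference was not shared by the 9 genes. Its values for Xirp1 and Ankrd1 lay above every control, those for Flnc within the controls and those for Ankrd2, Ankrd23, Csrp3, Fhl1, Fhl2 and Xirp2 below every control.

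Of the 16 filamin C partners and turnover genes, 6 were highest in exposed replicate 7 among exposed libraries, against 11.6% of the 13874 genes with a mean of 1 CPM or more. Hspb8, which forms a chaperone complex with Bag3 that clears damaged filamin C, stood at 406 CPM, 2.44 times the median of the other 9 exposed libraries. Hspb1, a small heat shock protein that binds filamin C, stood at 253.5 CPM, 2.20 times that median. Cryab stood at 1.82 times, Hspb7 at 1.65 times, Bag3 at 1.51 times and Hspa8 at 1.49 times the median. Of these 6, Hspb8 exceeded every control, and Hspb1 and Hspa8 lay within the control range. Cryab, Hspb7 and Bag3 still lay below every control in that library. Stub1, the ubiquitin ligase of the same complex, was close to the median at 1.06 times, as were Asb2 at 1.07 and Synpo at 0.996 times, and Ky was lower at 0.624 times. The summed level of satellite cell and regenerating fibre markers was 81.3 CPM there, against 40.3 to 61.1 CPM in the other 9 exposed libraries and 46.7 to 80.6 CPM in controls. Much of that sum was Myod1, which marks activated muscle precursors and denervated fibres, at 46.95 CPM, 2.43 times the median. The satellite cell genes Pax7 and Myf5 stood at 1.04 and 1.13 times and the embryonic myosin gene Myh3 at 1.07 times their medians. Myog stood at 1.94 times and Myh8 at 1.63 times, and exposed replicate 7 was the highest exposed library for both, as for Myod1. The summed Schwann cell, tendon, smooth muscle and macrophage markers of that library lay within the range of the others, and the part of any of these in its Ankrd1, Xirp1 and Flnc levels was not tested.

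**Figure D3:**
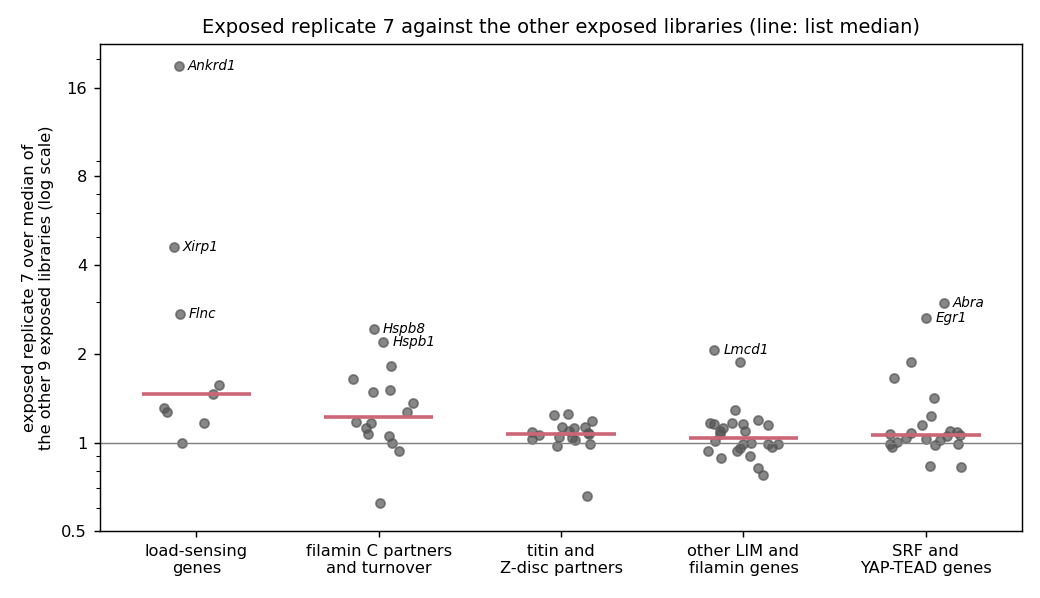
Level in exposed replicate 7 over the median of the other 9 exposed libraries, on a log scale, for each gene of the load-sensing group and of 4 related lists, with the list median as a line. Ankrd1 (18.98), Xirp1 (4.62) and Flnc (2.72) stand out in the group, and Hspb8 (2.44) and Hspb1 (2.20) among filamin C partners.

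At the low end, the same exposed libraries recurred. Exposed replicates 1, 4 and 6 were the 3 lowest for 4 of the 9 genes, Csrp3, Fhl1, Xirp1 and Flnc. Exposed replicate 4 was among the 3 lowest for 8 of the 9 genes, all but Ankrd23. The matching shares over all genes were not computed, so this recurrence may not be particular to the 9 genes. Replicates 1 and 4 are among those with high nerve markers, whereas replicate 6 is not. The slow fibre gene Myh7 stood at 4337, 2877 and 4183 CPM in replicates 1, 4 and 6, and between 2353 and 7271 CPM in the other exposed libraries. Tnni1, the slow troponin I gene, stood at 215, 105 and 148 CPM in them and between 76.8 and 355 CPM in the others. Ankrd23 went its own way in replicate 6, at 35.8 CPM the second highest of the exposed libraries, where Ankrd2 was the second lowest at 34.4 CPM.

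Divided by exon length, to compare genes with each other, Fhl1 was the most abundant of the 9 transcripts in controls, at 937 ± 109 CPM per kilobase (SD, n = 10, as for the levels that follow). Xirp2 followed at 487 ± 77.5, Ankrd2 at 405 ± 113 and Flnc at 371 ± 68.8 CPM per kilobase. The ranges of Xirp2 and Ankrd2, and of Ankrd2 and Flnc, overlapped. Xirp1 at 141 ± 36.5 and Csrp3 at 112 ± 39.2 CPM per kilobase formed the next overlapping pair. Ankrd23 stood alone at 28.6 ± 4.58, and Fhl2 at 8.94 ± 0.991 and Ankrd1 at 6.16 ± 2.05 CPM per kilobase came last, with overlapping ranges. In exposed muscle Fhl1 at 394 ± 119 and Xirp2 at 294 ± 71.3 CPM per kilobase still led, but Ankrd2 dropped behind Flnc and Xirp1, by their means of 64.4 ± 26.3 against 186 ± 99.8 and 102 ± 90.6 CPM per kilobase. The ranges of these 3 genes overlapped in exposed libraries, and Ankrd2 exceeded Xirp1 in 3 of the 10. Without exposed replicate 7 the Xirp1 mean was 75.1 ± 33.9 CPM per kilobase (n = 9).

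**Figure D4:**
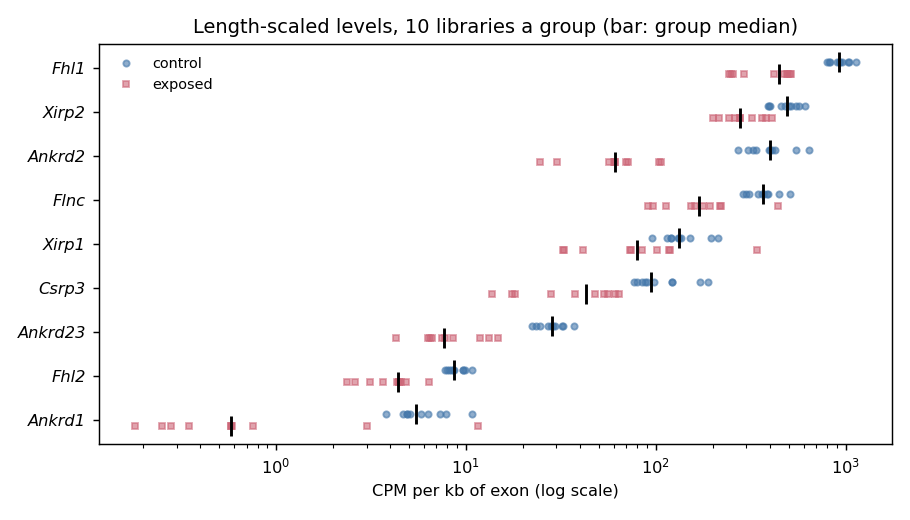
Level per kilobase of exon of each gene in every library, on a log scale, with the group median as a bar. In controls, Fhl1 lies highest at a mean of 937 CPM per kilobase and Ankrd1 lowest at 6.16, and in exposed muscle Ankrd2 has a mean of 64.4, below Flnc at 186 and Xirp1 at 102.

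Ratios within a library, which do not depend on scaling between libraries, were compared for 4 pairs of relatives with a 2-sided permutation test and adjustment over the 4. Ankrd23 relative to Ankrd2 went from a log2 ratio of -2.55 ± 0.38 in controls to -1.60 ± 1.02 in exposed libraries (SD, n = 10 each), a difference of 0.94 with a permutation p of 0.0121 and an adjusted p of 0.0484. The ratio was above the control mean in 8 of 10 exposed libraries. It stayed under 0.05 in 4 of the 20 analyses with a library left out. Without exposed replicates 1 to 4 the difference was 1.17, with an adjusted p of 0.00899 by the exact permutation test. The other 3 pairs did not pass. With all libraries in, the log2 ratio differed by -0.35 between the groups for Ankrd1 to Ankrd2 (adjusted permutation p of 0.782), by 0.13 for Fhl2 to Fhl1 (0.605) and by -0.04 for Xirp1 to Xirp2 (0.890). Without exposed replicates 1 to 4, the differences for Ankrd1 to Ankrd2 and for Xirp1 to Xirp2 turned to 0.52 and 0.36, and neither passed. The spread of Ankrd1 to Ankrd2 grew from an SD of 0.25 in controls to 1.90 in exposed libraries, with exposed replicate 7 highest at -1.05.

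Across the 10 control libraries, 33 of the 36 pairs of these genes had a positive Pearson r of log2 CPM, from -0.52 to 0.90. Of 54 correlations computed, which include each gene with Myh7 and Myh4, 5 passed by Pearson's r with a permutation test and adjustment, and none did by Spearman's rho. Ankrd2 and Flnc correlated most closely, with r = 0.901 (adjusted permutation p of 0.0243), rho = 0.891 (adjusted permutation p of 0.0551) and r = 0.787 without the 2 libraries farthest from the median. Fhl1 and Xirp2 had r = 0.846 (adjusted permutation p of 0.0381), rho = 0.794 (0.0812) and r = 0.811 without 2 libraries. Ankrd2 and Csrp3 had r = 0.838 (adjusted permutation p of 0.0381), rho = 0.794 (0.0812) and r = 0.732 without 2 libraries. Csrp3 and Flnc (r = 0.836, rho = 0.794) and Ankrd1 and Ankrd2 (r = 0.816, rho = 0.612) dropped to r = 0.575 and r = 0.446 without 2 libraries. The libraries left out for these 2 pairs were control replicates 4 and 9. Leaving out the farthest libraries narrows the range and can lower r by itself, so the drop does not show what these pairs rest on. The first gene of a pair set which libraries were left out, so the checks differ between pairs. Ankrd2 with Flnc and with Csrp3 lost control replicates 3 and 4 and kept 9. Fhl1 with Xirp2 lost 3 and 9 and kept 4. Control replicates 4 and 9 had the lowest library totals, 21063091 and 17336017 counts, and were the 2 highest controls for Ankrd1, Ankrd2, Csrp3 and Flnc. The part of depth in these relations was not tested, and with library size in place of TMM none of the 54 passed. No gene passed with Myh7 or Myh4.

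Among all genes at 1 CPM or more in controls, the 3 with the highest r of log2 CPM over the 10 controls were found for each of the 9 genes, 27 in all, and their r was taken again in the 6 exposed replicates 5 to 10. There it was over 0.7 for 6 of the 27 and below 0 for 7. Exposed replicates 5 to 10 include replicate 7, which stood apart for Ankrd1, Xirp1 and Flnc. An r without replicate 7 was not computed for the 27 genes, so its part in these values is unknown. The closest gene to Flnc was Myo18b, a myosin of the sarcomere, with r = 0.977 in controls and 0.709 in those exposed libraries, and the next, Myh10, went from 0.943 to 0.407. Csrp3 had Klhl40, a stabiliser of thin filament proteins (0.966 and 0.701), followed by Ppme1 (0.945 and 0.595) and Hspb1 (0.937 and 0.832). The closest to Xirp1 was Eme2 (0.930 and 0.299), and the heat shock gene Hspa1b followed after Adamtsl5 (0.916 and 0.780). The r was below 0 in those exposed libraries for the closest genes of Ankrd2 (Brap, 0.973 and -0.098), Ankrd23 (Dock8, 0.966 and -0.538) and Fhl2 (Dnmt3b, 0.898 and -0.665). It was also lower for those of Fhl1 (Cops7a, 0.933 and 0.368) and Xirp2 (Rapgef1, 0.959 and 0.243), whereas that of Ankrd1 (Rlf) had 0.955 and 0.771. These are the highest of many r values over few libraries and are given as a description.

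Partners of these proteins moved in both directions. Of 18 titin and Z-disc partners, 7 fell and 4 rose by edgeR's test, with a median log2 fold change of -0.09. Over all genes tested, 28.9% fell and 28.7% rose, with a median of 0.02. Actn2, the alpha-actinin that crosslinks actin at the Z-disc, was 3.70-fold lower, and Ldb3, a PDZ-LIM protein that binds it, 2.18-fold lower. Of the calcineurin-binding myozenins, Myoz2, the slow fibre form, was 3.71-fold lower, whereas the fast fibre forms Myoz1 and Myoz3 were 3.28-fold and 1.52-fold higher. The other 2 that rose were Mypn, which links Ankrd1 to the sarcomere, and Cmya5, at 1.39-fold and 1.29-fold higher. Titin itself (Ttn), the anchor of the ankyrin repeat proteins, did not pass the test, with a log2 fold change of 0.04.

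Of 26 other LIM and filamin genes, 10 fell and 9 rose (28.9% and 28.7% over all genes), with a median log2 fold change of -0.01. The PDZ-LIM genes Pdlim1 and Pdlim5 were 3.23-fold and 1.89-fold lower, and Lims1, the integrin-linked PINCH protein, was 1.66-fold lower. Fhl3, the third LIM-only gene of muscle, went the other way from Fhl1 and Fhl2: it was 2.50-fold higher, with all 10 exposed libraries above every control. Flna, the filamin of non-muscle cells, did not pass the test, with a log2 fold change of -0.01, nor did Csrp2, a relative of Csrp3, at 0.16.

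Of 16 filamin C partners and turnover genes, 9 fell and 3 rose (28.9% and 28.7% over all genes), with a median log2 fold change of -0.57. Cryab and Hspb7, small heat shock proteins of muscle, were 5.32-fold and 4.31-fold lower. Synpo, an actin-binding protein, was 1.79-fold lower and Sgcd, a sarcoglycan of the fibre membrane that binds filamin C, 1.69-fold lower. Those that rose included Sqstm1, the autophagy receptor, at 1.28-fold higher and Igfn1, a Z-disc partner of Ky, at 1.55-fold higher. The 4 that did not pass were Hspb1, Hspb8, Asb2, which marks filamins for degradation, and Ky.

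Of 23 genes of the SRF and YAP-TEAD systems, which act through CArG and MCAT elements, 7 fell and 6 rose (28.9% and 28.7% over all genes), with a median log2 fold change of -0.04. Vgll2, a TEAD cofactor of muscle, was 5.86-fold lower, with all 10 exposed libraries below every control. Amotl1, an angiomotin that binds YAP, was 2.03-fold lower. Acta1, the skeletal actin gene and an SRF target, was 2.14-fold lower, and Srf itself 1.32-fold lower. Among the 6 that rose were Tead4, a TEAD factor of muscle precursors, at 2.15-fold higher, and the SRF coactivators Mrtfa and Mrtfb at 1.42-fold and 1.21-fold higher. Ankrd1, as a target of the same system, is described above.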

How the data were processed

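The authors deposited raw counts of reads for each Ensembl gene, not normalized. Per the labels' protocols, RNA was extracted with TriZol and column purification, and 90 ng of it went into each ribosome-depleted library. Per the submitters' processing notes, MultiQC 1.15, Subread, featureCounts 1.5.1 and edgeR were used with GRCm39. Not given in the sources used here are the strand setting, the annotation release and how reads shared by genes were treated.

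Symbols and exon lengths came from GENCODE M21 (GRCm38), which named 51948 of 56941 entries holding 97.6% of counts. A robust quasi-likelihood model was fitted across all genes with edgeR 4.0.16 (R 4.3.3), after filterByExpr by group with its minimum count of 10 and total of 15 and with TMM factors of 0.931 to 1.16, with Benjamini-Hochberg adjustment over 16778 genes at 0.05. The common biological coefficient of variation was 0.149. CPM used TMM-scaled library sizes, log2 CPM a prior count of 2, and ratios counts plus 0.5 with 100000 permutations. The fit was checked on simulated data in which few genes changed, variation was alike for all genes and no library was an outlier. That setting differs from these libraries. The labels give 2 groups of 10 mice and no batch, and no covariate was used.

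The members and lists were chosen with earlier results of these data known. Named genes are all 9 members, the 4 smallest edgeR p-values of each list, genes needed to account for a count of 5 or fewer, the 3 genes most correlated with a member in controls, and marker genes. A gene named outside these was chosen after its values were seen, and some list genes are not reported here by name. Alternatives were other scalings, DESeq2 1.42.0, limma 3.58.1 voom with quality weights, other filters and thresholds, a replicate block, and libraries left out. Same-numbered control and exposed libraries were not paired in the data.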

Additional observations from a re-analysis of the deposited data

Results flagged for a closer look

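The highest exposed library lay far from the other 9 for 3 of the 9 genes, in each case exposed replicate 7. The gap to the next library, as a share of the whole exposed range of CPM, was 0.75 for Ankrd1, 0.722 for Xirp1 and 0.629 for Flnc, each above Dixon's 95% critical value for 10 libraries. In all, 26 such tests were made, and chance alone passes about 1 in 20. No other gene or ratio passed. On the log2 scale used for the fold changes the same shares were 0.322, 0.449 and 0.439, each below that critical value, so the 3 genes pass on the CPM scale only. The 3 values come from the same library, so they are not independent of each other.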

How the results depend on the processing

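Each of the 9 genes kept its direction under all 32 alternatives, and 7 kept their call. Ankrd1 lost its call without a filter on low counts (adjusted p 0.0528), against a fold of 1.2 (0.0571), at 0.01 and without exposed replicates 1 to 4. Xirp1 gained one with limma-voom quality weights (adjusted p 0.0295) and without exposed replicate 7, all other p-values here being edgeR's. With a library left out, 8 to 9 genes were called lower, and 55.8% to 57% of all genes were called in either direction. Against a fold of 1.2, 4 titin partners fell and 3 other LIM, 1 filamin C partner and 2 SRF and YAP-TEAD genes rose. The share called over all genes was 57.6% in the main fit and 29% against that fold. It was 46.4% at an adjusted p of 0.01 and 51.3% without exposed replicates 1 to 4. Other LIM genes that rose numbered 4 at an adjusted p of 0.01 and 5 without exposed replicates 1 to 4. Without those, the log2 ratio differed by 0.52 for Ankrd1 to Ankrd2 and 0.36 for Xirp1 to Xirp2, turning both, and with a library left out the latter ran from -0.241 to 0.0843. For Ankrd23 to Ankrd2 it ran from 0.76 to 1.07. The causes were not tested. Correlated pairs numbered 0 with library size alone, and 0 to 7 with a control left out. Library size alone shifted the median of all genes to 0.10 on the log2 scale, with 38.7% of calls lower against 50.2%; upper-quartile scaling gave 41.2%. The 8 calls held under both.

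Control and exposed libraries share numbers 1 to 10, but same-numbered libraries did not deviate together (r from -0.13 to 0.10, none over 0.1). With the number as a replicate block, 8 of the 9 genes were called lower, 4816 genes fell and 4654 rose in all, and the difference of Ankrd23 to Ankrd2, 0.94, no longer passed (adjusted permutation p 0.156).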

Other observations

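Exposed replicate 7 held at least 4 times the median of the other 9 exposed libraries for 13 of 14249 genes. The same count was 78, 18, 16 and 89 in exposed replicates 1 to 4 and between 1 and 6 in the remaining exposed libraries. The genes were chosen after their values were seen. Ankrd1 and Xirp1 were among the 13, and 11 were genes outside the 9. Nmrk2, a muscle kinase that makes a precursor of NAD, stood at 79.0 CPM against a median of 3.22 CPM, and Atf3, a stress-induced transcription factor, at 134.7 against 6.84 CPM. Tnfrsf12a, the TWEAK receptor, stood at 70.75 against 7.10 CPM, Rrad, a small GTPase of muscle, at 45.9 against 4.56 CPM, and Hspa1a, an inducible heat shock protein, at 52.4 against 8.19 CPM. Each of these 5 genes also exceeded its highest control library. The others were Nr4a3, Hbegf, Mustn1, Gm44193, Srxn1 and Otud1. Mybph, a myosin-binding protein, stood at 23.0 CPM in that library against 8.25 CPM, and Runx1, a factor raised in denervated fibres, at 53.0 against 16.2 CPM.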
